A study of Musca domestica with 24 samples.

Results

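Attacin, diptericin and lysozyme are 3 immune effector genes of the house fly Musca domestica, and they were taken from the deposited abdomen and head tables by gene name, 3 of the 16540 genes listed in each. The study measured polyadenylated RNA in the head and the abdomen of single flies of the IIIM (3-6) strain, with 3 flies for each group and tissue and 24 libraries in all. Every fly had received double-stranded RNA (dsRNA), either against Md-tra, the house fly transformer gene that is needed for female development, or against GFP (green fluorescent protein), the control target. The design asks how genotype and dsRNA treatment act on expression in each tissue.

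The 4 groups were GFP females, which are genotypic and phenotypic females given GFP dsRNA, GFP males, which are genotypic and phenotypic males given GFP dsRNA, and 2 groups of phenotypic males given Md-tra dsRNA, called N and SR as in the library codes. By the sample titles the N flies were genotypic females turned into males and the SR flies genotypic males, but the headers within the tables assign the genotypes the other way round. The names N and SR are therefore used without a genotype, and the interaction of genotype and dsRNA is given under both readings. Results that set GFP females against phenotypic males do not depend on this choice. The ages of the flies and the level of Md-tra itself were not analysed here.

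Attacin and diptericin are antimicrobial peptides that insects secrete into the haemolymph, mostly from the fat body, a tissue spread through the abdomen and present in the head. In Drosophila melanogaster their genes are classical targets of the Imd pathway, in which peptidoglycan of bacteria is sensed by receptors and the transcription factor Relish is activated. Their transcripts are scarce in uninfected flies of that species and rise steeply after bacterial challenge, wounding included. Lysozyme cleaves bacterial peptidoglycan. In Drosophila the main lysozyme genes are expressed in the digestive tract, where the enzyme digests bacteria taken up with food, so a lysozyme transcript can mark gut digestion as well as immunity. Which of these roles the house fly gene named lysozyme has is not given in the tables used here.

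Attacin carries gene identifier 101889508, diptericin 101897067 and lysozyme 101893594, and the deposited tables place them on Muller elements E, A and D, the conserved chromosome arms of flies. Values below are normalized counts, which the authors made by dividing the reads of each gene by 1 size factor per library, separately in each tissue. Levels are therefore compared between flies of a tissue and not between genes or tissues. Whole reads could be recovered from these values, and they put the depth at 56719614 to 77407229 reads in the abdomens of GFP females, 20916287 to 31364368 in those of GFP males and 24100066 to 41657177 in those of SR. The abdomens of N held 2689265, 16113838 and 2756581 reads, so that replicates 1 and 3 of N were the shallowest libraries. Head libraries ranged from 12080603 to 79454339 reads. Bicoid (bcd), a maternal transcript of the ovary, had a mean of 2837 normalized counts in the abdomens of GFP females. Its value was 0 in each abdomen of GFP males and SR, and 0, 5.07 (3 reads) and 0 in those of N. The yolk protein gene yp3 did not separate the sexes in this way. In the abdomen it ranged from 21.1 to 15574 in GFP females and from 273 to 1975 in GFP males. The range of yp3 was 669 to 3173 in N and 6253 to 24021 in SR. In the head, replicate 2 of SR stood apart, with 110 genes more than 10-fold above every other head against 0 to 5 genes in the other heads, and lysozyme was among them.

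In the abdomen, all 3 effectors were low in every GFP female and higher in every phenotypic male, whether given GFP or Md-tra dsRNA. Attacin reached 7.22, 6.48 and 1.99 normalized counts in GFP females, on 35, 27 and 7 reads. GFP males had 6993, 99.7 and 378, N had 243, 23.6 and 288, and SR had 9.59, 264 and 1613. The female values lay below all 9 males, but the nearest male, replicate 1 of SR on 11 reads, was only 1.33-fold above the highest female. The group means were 5.23 ± 2.83 (SD, n = 3) in GFP females, 2490.2 ± 3902 in GFP males, 185 ± 141 in N and 629 ± 862 in SR.

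Diptericin stood at 15.1, 20.7 and 1.14 normalized counts in GFP females, the last on 4 reads. GFP males had 2484, 125 and 430.0, N had 697, 778 and 62.2, and SR had 210.0, 163 and 259. No male overlapped the females, and the lowest male, replicate 3 of N with 8 reads, was 3.01-fold above the highest female. Group means were 12.3 ± 10.1 (SD, n = 3) in GFP females, 1013 ± 1283 in GFP males, 513 ± 392 in N and 211 ± 47.8 in SR.

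Lysozyme was at 19.2, 29.3 and 20.8 normalized counts in GFP females. GFP males had 2455, 3266 and 567, N had 956, 13565 and 358, and SR had 3734, 3801 and 147. Its gap between the sexes was the widest of the 3 genes, since the lowest male was still 5.01-fold above the highest female. The means were 23.1 ± 5.44 (SD, n = 3) in GFP females, 2096 ± 1385 in GFP males, 4959.5 ± 7459 in N and 2560.5 ± 2090.5 in SR.

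**Figure D1:**
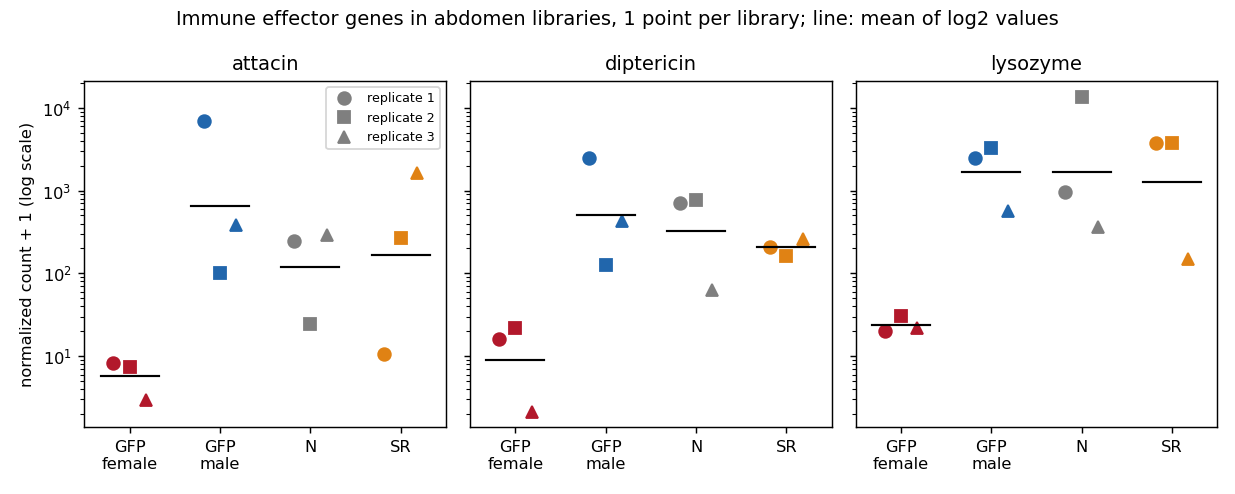
Normalized counts plus 1 (log axis) of attacin, diptericin and lysozyme in each of the 12 abdomen libraries, 1 point per fly with lines at the group means of the log values. The 3 GFP females lie lowest for each gene, below all 9 phenotypic males, and the males of 1 group spread over up to 168-fold for attacin.

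Means over GFP males were 476-fold those of GFP females for attacin, 82.5-fold for diptericin and 90.8-fold for lysozyme. Replicate 1 of GFP males set much of the folds of attacin and diptericin, which were 45.7-fold for attacin and 22.6-fold for diptericin without it, against 83.04-fold for lysozyme. Without replicate 3 of GFP females, the lowest for both peptides, they were 363-fold and 56.7-fold, and without replicate 2 of GFP females diptericin was 125-fold. On the log2(normalized count + 1) scale, which understates changes of genes with few reads, attacin fell by 6.82 ± 1.89 (SE) in GFP females against GFP males, with an adjusted p of 0.00687 in limma with Benjamini-Hochberg adjustment. Diptericin fell by 5.82 ± 1.26 (limma, adjusted p = 0.00158) and lysozyme by 6.13 ± 1.45 (limma, adjusted p = 0.00271). These 3 calls of 3 stand against a background in which 44.3% of all genes tested were called lower in the abdomens of GFP females and 47.8% were lower there without overlap, so the direction alone is common. The median over all genes was -0.61 log2 units in this comparison, and the 3 effectors lay far below it. Their rank among all genes by size of the difference was not computed. Large falls were also seen in neural genes, while bcd went the other way. Log2 means in GFP females and GFP males were 6.21 and 13.3 for para-like, 0.95 and 6.21 for IR25a, and 3.23 and 7.50 for nAChRbeta3. In bulk tissue, fewer cells of a type and less RNA per cell cannot be told apart, and the part played by the ovary in the abdomens of females was not tested.

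Both groups given Md-tra dsRNA had more of the effectors in the abdomen than GFP females, and this does not depend on which group holds which genotype. N exceeded GFP females by 5.17 ± 1.26 log2 units for diptericin (limma, adjusted p = 0.00327) and by 6.14 ± 1.45 for lysozyme (limma, adjusted p = 0.00262). For attacin the same difference was 4.40 ± 1.89 and missed the threshold of 0.05 in limma, with an adjusted p of 0.0534, although no N fly overlapped a female. Thus 2 of 3 effectors were called higher, where 42.1% of all genes were called higher and 42.2% were higher without overlap. SR exceeded GFP females for all 3 genes, by 4.86 ± 1.89 for attacin (limma, adjusted p = 0.0362), 4.52 ± 1.26 for diptericin (limma, adjusted p = 0.00745) and 5.76 ± 1.45 for lysozyme (limma, adjusted p = 0.00412), against 43.7% of genes called higher and 46.6% higher without overlap. The attacin call in SR was not firm. Its adjusted p in limma rose to as much as 0.144 when 1 of the 6 libraries was left out, and the call held only without replicate 1 of SR, the fly with the lowest attacin among males.

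Among the phenotypic males, no difference in the effectors was called, and the flies of the groups overlapped for every gene. SR differed from GFP males by -1.96 ± 1.89 log2 units for attacin, -1.30 ± 1.26 for diptericin and -0.37 ± 1.45 for lysozyme, each with an adjusted p of 0.999 in limma, in a comparison where 0.16% of genes were called. N differed from GFP males by -2.42 for attacin (limma, adjusted p = 0.445), -0.66 for diptericin (0.773) and 0.01 for lysozyme (0.998), where 8.88% of genes were called. N against SR gave -0.46 for attacin (limma, adjusted p = 0.894), 0.65 for diptericin (0.766) and 0.38 for lysozyme (0.884), with 14.6% of genes called. With SEs of 1.26 to 1.89, differences of several fold between the male groups were not detectable.

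With the 3 GFP females set against the 9 phenotypic males, an exact permutation test over flies gave differences of -5.36 log2 units for attacin, -5.17 for diptericin and -6.01 for lysozyme. Each had a two-sided p of 0.00909, the smallest that 3 flies against 9 allow, and an adjusted p of 0.0182 over the 6 tests of both tissues in this exact test. All 9 males lay above every female for each gene, and 36.8% of all genes in the abdomen had that order. The male median was 264 normalized counts for attacin, 259 for diptericin and 2455 for lysozyme.

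The interaction asks whether Md-tra dsRNA changed the effectors by a different amount in genotypic females and genotypic males. As computed, it equals GFP males minus GFP females plus N minus SR, or plus SR minus N with the genotypes exchanged. Since N against SR was not called, it largely restates the difference between GFP males and GFP females given above. With the genotypes of the titles, its log2 size was 6.36 ± 2.68 for attacin (limma, adjusted p = 0.0551), 6.47 ± 1.79 for diptericin (limma, adjusted p = 0.00841) and 6.51 ± 2.05 for lysozyme (limma, adjusted p = 0.0162), so 2 of 3 were called where 67.2% of genes were called. With N and SR exchanged, as in the column headers, it was 7.29 ± 2.68 for attacin (limma, adjusted p = 0.0347), 5.18 ± 1.79 for diptericin (limma, adjusted p = 0.0267) and 5.75 ± 2.05 for lysozyme (limma, adjusted p = 0.0308), 3 calls of 3 against 62.9% of genes. The exchanged reading rested on few flies: without both shallow N abdomens, 1 of the 3 effectors was called, and with the number in the library codes as a block, none was. In both readings the genotypic females given Md-tra dsRNA lay above GFP females by several log2 units, while genotypic males given it had attacin and diptericin levels below GFP males that did not pass the test.

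**Figure D2:**
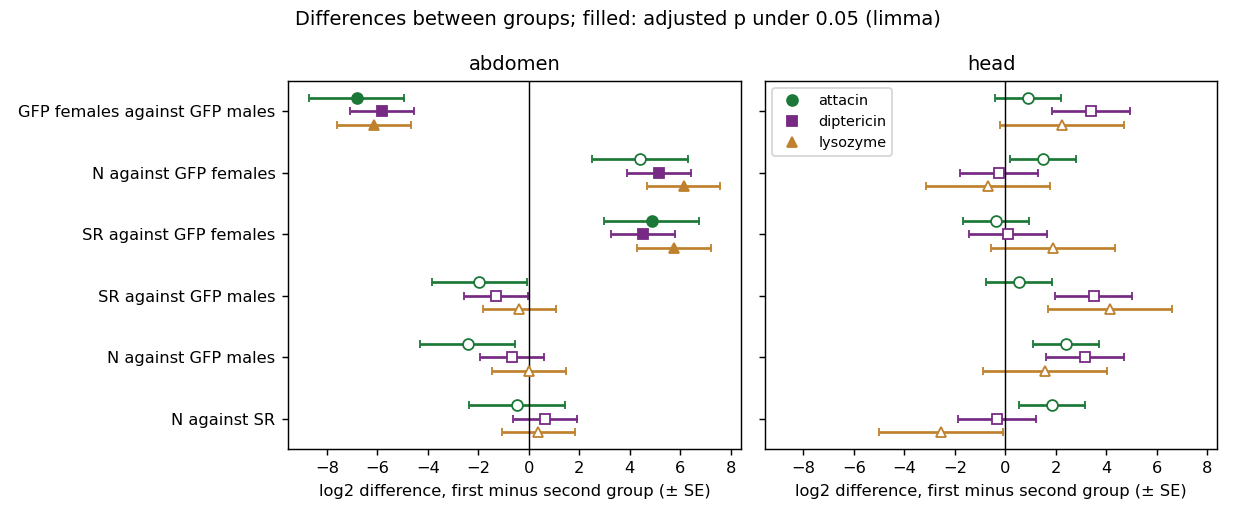
Log2 differences in normalized count + 1 for the 3 effectors in each pairwise comparison, abdomen and head side by side, with bars of 1 SE from limma and filled points where the adjusted p was under 0.05. In the abdomen the comparisons with GFP females lie 4.40 to 6.82 log2 units from 0 and those among males lie nearer to 0, and in the head no point is filled.

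In the head, none of the 3 effectors was called in any of the 6 pairwise comparisons or the 2 interactions. Attacin stood at 212, 776 and 309 normalized counts in GFP females, 896, 38.2 and 229 in GFP males, 7742, 352 and 429 in N, and 129, 417 and 451 in SR. The groups overlapped throughout, with replicate 1 of N far above every other fly. GFP females differed from GFP males by 0.89 ± 1.31 log2 units (limma, adjusted p = 0.644), in a comparison where 25.6% of all genes were called.

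Diptericin was higher in the head of every GFP female than in that of every GFP male, the order opposite to the abdomen, but the difference did not pass the test. GFP females had 935, 3075 and 834 normalized counts, and GFP males had 309, 40.7 and 156. N had 20824, 645 and 105, and SR had 1311, 1073 and 2071. GFP females lay above GFP males without overlap, with means 9.58-fold apart, as 23.5% of all genes did, and SR lay above GFP males without overlap, 8.81-fold apart in means, as 17.4% of genes did. With single libraries left out, these folds ranged from 5.25 (without replicate 2 of GFP females) to 16.4 and from 6.39 to 15.1, the upper ends without replicate 1 of GFP males. The fitted difference was 3.40 ± 1.54 log2 units for GFP females against GFP males (limma, adjusted p = 0.124) and 3.50 ± 1.54 for SR against GFP males (limma, adjusted p = 0.190), so neither was called. In a fit of the GFP flies alone, the first of these passed the threshold, with an adjusted p of 0.0397 in limma.

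Lysozyme was close to absent from 11 of the 12 heads. GFP females had 2.70, 13.3 and 9.26 normalized counts on 2, 10 and 10 reads, GFP males had 1.84, 0 and 0.746 on 4, 0 and 2 reads, N had 1.47, 20.1 and 1.57 on 1, 8 and 1 reads, and SR had 0.940, 5108 and 1.78. Replicate 2 of SR held 7871 reads of lysozyme where the other SR heads held 1 read each. In the male head with no read, the limit that 0 reads allow, set at 3 reads, was 1.51 normalized counts. The gene passed the filter on low values with only 3 heads at 10 or more, of which that library was one. GFP females again lay above GFP males without overlap, on the few reads given above, as did 23.5% of all genes. The difference of 2.26 ± 2.45 was not called (limma, adjusted p = 0.521). That SE pools the spread of all 12 heads, and SR varied most, with an SD of 6.42 log2 units. The SD was 1.02 in GFP females and 0.75 in GFP males. The SE therefore rests largely on replicate 2 of SR, which is in neither group.

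**Figure D3:**
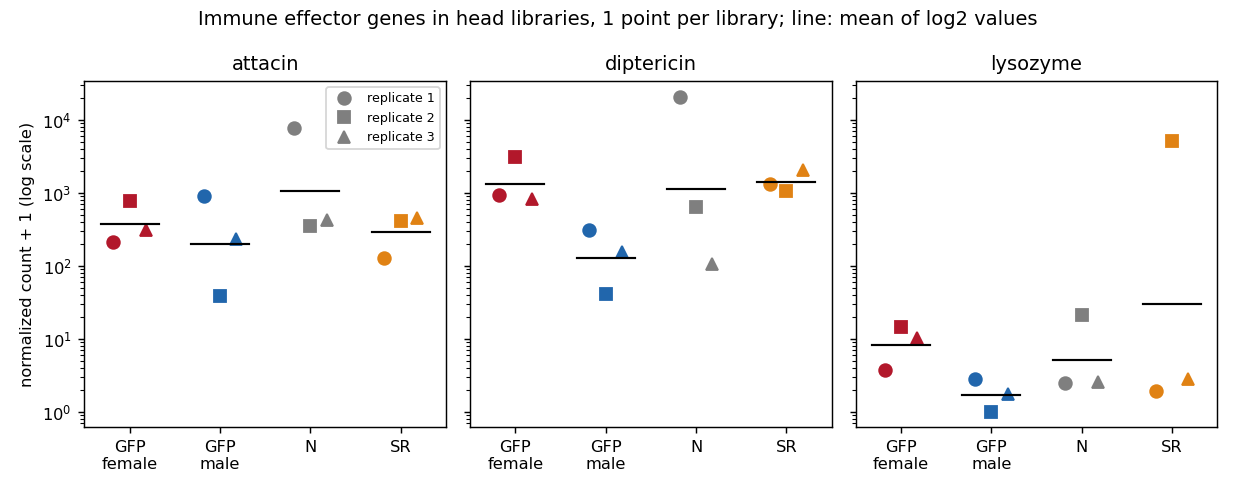
Normalized counts plus 1 (log axis) of the 3 effectors in each of the 12 head libraries, 1 point per fly with lines at the group means of the log values. Replicate 1 of N is highest for attacin (7742) and diptericin (20824), and replicate 2 of SR is highest for lysozyme (5108), where the next head has 20.1.

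The remaining comparisons of the head gave no call either. N against GFP females gave 1.51 for attacin, -0.25 for diptericin and -0.67 for lysozyme, with limma adjusted p-values from 0.696 to 0.968 and 0.907% of genes called. SR against GFP females gave -0.36, 0.09 and 1.89, with limma adjusted p-values from 0.756 to 0.985 and 0.163% of genes called. SR against GFP males gave 0.53 for attacin and 4.15 for lysozyme, with 4.49% of genes called. N against GFP males gave 2.40 (limma, adjusted p = 0.249), 3.15 (0.199) and 1.59 (0.712), with 11.7% of genes called, and N against SR gave 1.86, -0.34 and -2.56, with 0.302% called. The interaction was called in 2.42% of genes as titled and in 11.1% with N and SR exchanged, and in no effector. With 3 females against 9 males, the exact permutation test gave -0.09 log2 units for attacin (p = 1), 1.19 for diptericin (p = 0.473) and 0.35 for lysozyme (p = 0.609).

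The lysozyme values of SR heads rested on replicate 2 alone. Without it, the difference from GFP females went from 1.89 to -1.81 log2 units, that from GFP males went from 4.15 to 0.45, and N against SR went from -2.56 to 1.14. Lysozyme ranked 12 among all genes of the head by its gap of 7.92 log2 units between this library and the next. Other genes abundant in male abdomens were also high in this head. LOC101900927 had 33107 normalized counts there and at most 88.05 in every other head, LOC101887632 had 5711 and at most 113, and LOC101894487 had 3739 and at most 12.01. Not all such genes were. Of 138 genes with at least 5 RPM (reads scaled to the library total) in all 9 male abdomens and at most 1 in the other 11 heads, lysozyme being one, 5 exceeded that limit in this head, and the median over the 138 was 0.0161 against at most 0.166 in the other heads. Lysozyme itself was at 126 RPM in this head and 151 in the abdomen of replicate 2 of SR. The authors' deposited mean over head libraries gives this library a weight of 0. Attacin, at 417, and diptericin, at 1073, lay within the range of the other heads. Whether material of the abdomen entered this library was not tested.

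The effectors varied more between flies of a group than most genes did. In the abdomen, the highest fly of a group exceeded the lowest 70.2-fold for attacin in GFP males and 168-fold in SR, 19.8-fold for diptericin in GFP males, and 37.9-fold for lysozyme in N. Diptericin in SR stayed within 1.59-fold and lysozyme in GFP females within 1.53-fold, so that the spread was not shared by every group. The SD about the group means was 2.64 log2 units for attacin, 1.75 for diptericin and 2.03 for lysozyme, against a median of 0.61 over all genes tested, which put them at percentiles 98.5, 92.7 and 95.6. Set beside genes of similar level, the percentiles were 98.0, 93.9 and 98.9. In the head the SDs were 1.82, 2.15 and 3.39 against a median of 0.48, at percentiles 95.5, 97.0 and 99.5, the last of which rests on replicate 2 of SR.

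Attacin and lysozyme ordered the male abdomens differently. Replicate 1 of SR had the lowest attacin among males (9.59) and a lysozyme of 3734, while replicate 3 of SR had attacin at 1613 and the lowest lysozyme among males (147). In N, replicate 2 had the lowest attacin of its group (23.6) and the highest lysozyme of all flies (13565). Over the 9 phenotypic males, Pearson's r of the log2 values was -0.54 (permutation p = 0.135, adjusted 0.405 over 6 relations) and Spearman's rho -0.667 (permutation p = 0.0589), so the relation did not pass the test. It was -0.90 without GFP male replicate 1 and SR replicate 1, the flies farthest from the median of attacin. Attacin and diptericin in the same flies gave r = 0.37 (permutation p = 0.335) and rho = 0.217 (permutation p = 0.581), and diptericin and lysozyme gave r = 0.27 (permutation p = 0.480) and rho = 0.15 (permutation p = 0.708).

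In the heads of the 9 males, attacin and diptericin were both highest in replicate 1 of N and both lowest in replicate 2 of GFP males. Their r was 0.76 (permutation p = 0.0241, adjusted 0.145 over 6 relations) and rho was 0.5 (permutation p = 0.178). Without those flies r was -0.18, so the relation rested on them. Attacin with lysozyme gave r = 0.09 (permutation p = 0.667) and diptericin with lysozyme gave r = 0.19 (permutation p = 0.588).

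Head and abdomen libraries carry matching numbers in their codes, and the protocol states that both tissues were dissected from individual flies, but the labels do not say that the same number marks the same fly. GFP male 1 had the highest attacin of its group in both tissues, with 896 in the head and 6993 in the abdomen, and GFP male 2 the lowest in both, with 38.2 and 99.7. In SR the order of the 3 flies for attacin was also the same in head and abdomen. Over all 12 numbers, deviations from the group means in head and abdomen gave r = 0.67 for attacin (exact permutation within groups, p = 0.0486, adjusted 0.0729 over 3 genes), with 9 of 12 on the same side, and rho = 0.643 (p = 0.0810). Diptericin gave r = 0.68 (exact permutation, p = 0.0478, adjusted 0.0729), with 8 of 12 on the same side, and rho = 0.629 (p = 0.108). Lysozyme gave r = 0.46 (exact permutation, p = 0.426) and rho = 0.524 (p = 0.268). None passed the adjustment. Without the 2 numbers farthest out, r was 0.68, 0.69 and 0.81.

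**Figure D4:**
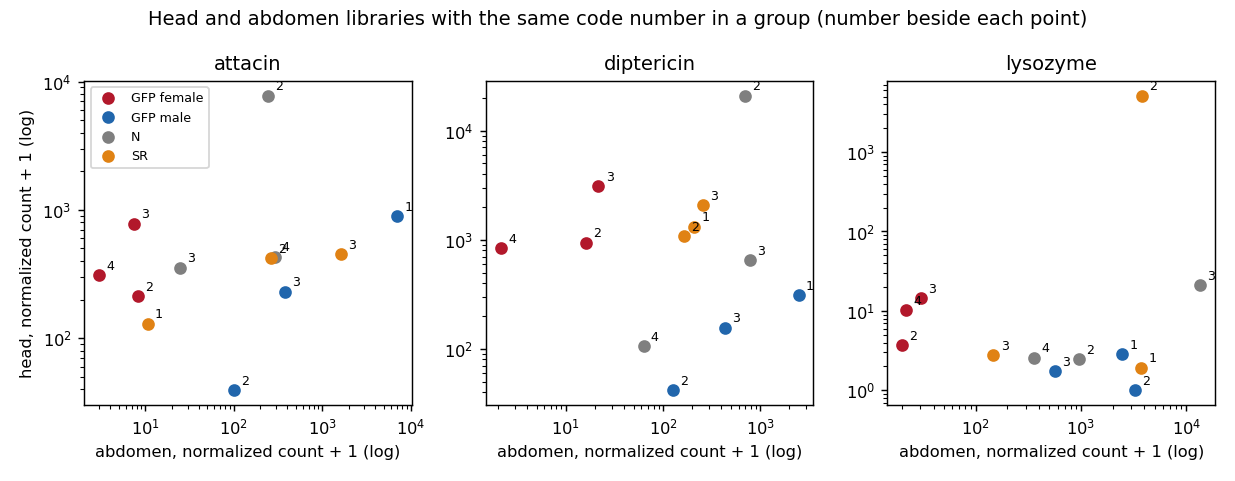
Head against abdomen for each effector, in normalized counts plus 1 on log axes, with 1 point for each library code number shared by a head and an abdomen and colours for the 4 groups. GFP females lie below every male along the abdomen axis and overlap the males along the head axis, and lysozyme is low in every head but that of SR number 2.

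The companion gene of an effector was the one with the highest Pearson r of deviations from the group means over 12 libraries. It was picked among 10245 abdomen and 10129 head genes with a mean of at least 50. The best of so many genes has a high r by selection alone, and no test of r was run. Attacin was followed by LOC101889957 in the abdomen (r = 0.985), which had 6697, 90.8 and 360 normalized counts in GFP males, 219, 57.4 and 241 in N, 13.9, 236 and 1611 in SR, and 2.06, 1.92 and 0.853 in GFP females. It ordered the flies within each of the 4 groups as attacin did. The next genes were LOC101892427 (r = 0.891) and LOC101900121 (r = 0.880). Both had their highest group mean in GFP females (89.1 and 423), where attacin was lowest. Whether the tables divide reads between similar gene copies was not tested, so values of gene families are uncertain to that extent. In the head LOC101889957 ranked 14 for attacin (r = 0.867), and LOC101900651 came first (r = 0.921).

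Diptericin was followed in the abdomen by LOC101896897 (r = 0.977), which is the next gene to it in the RefSeq gene table of the assembly Musca_domestica.polishedcontigs.V.1.1, and with rank 3 by LOC101897244 (r = 0.881), the neighbour on its other side. LOC101896897 had 3299, 49.8 and 175 normalized counts in GFP males, 219, 218 and 7.77 in N, 49.7, 44.7 and 75.6 in SR, and 7.84, 5.52 and 0 in GFP females. Like diptericin it was lower in GFP females than in GFP males, by a log2 difference of -6.32 ± 1.61 (limma, adjusted p = 0.00423). LOC101897244 departed from diptericin between groups. It was higher in N, with 1065, 3845 and 288, than in SR, with 58.4, 34.4 and 55.3, a difference of 4.43 log2 units (limma, adjusted p = 0.0309), whereas diptericin differed by 0.65 between them. In the head, LOC101893852 was most like diptericin (r = 0.981).

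Lysozyme had the closest companion of the 3. LOC101895951 gave r = 0.996 in the abdomen and was first in the head as well, with r = 0.987. It lies 10 rows from lysozyme in a run of rising start positions in the reference table, and has no Muller element assigned. LOC101895951 had 7106, 12510.3 and 1849 normalized counts in the abdomens of GFP males, 1606, 21960.5 and 435 in N, 4205, 4338 and 114 in SR, and 18.4, 30.02 and 28.7 in GFP females. In replicate 2 of the SR heads it reached 9799, with at most 30.2 in every other head, so the single high head was shared with lysozyme. LOC101894169, the gene next to lysozyme, ranked 4 in the abdomen (r = 0.977) and had 47.4 in that head, with at most 0.926 in the others. LOC101894545, the gene after attacin in that table, is assigned to another Muller element in the deposited tables and had r = 0.318 with attacin in the abdomen. Neighbours were read from the order of rows and start positions without contig names, so genes of separate contigs can appear side by side. The look at neighbouring genes was added after the values had been seen, and whether neighbours share reads with the effectors was not tested.

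**Figure D5:**
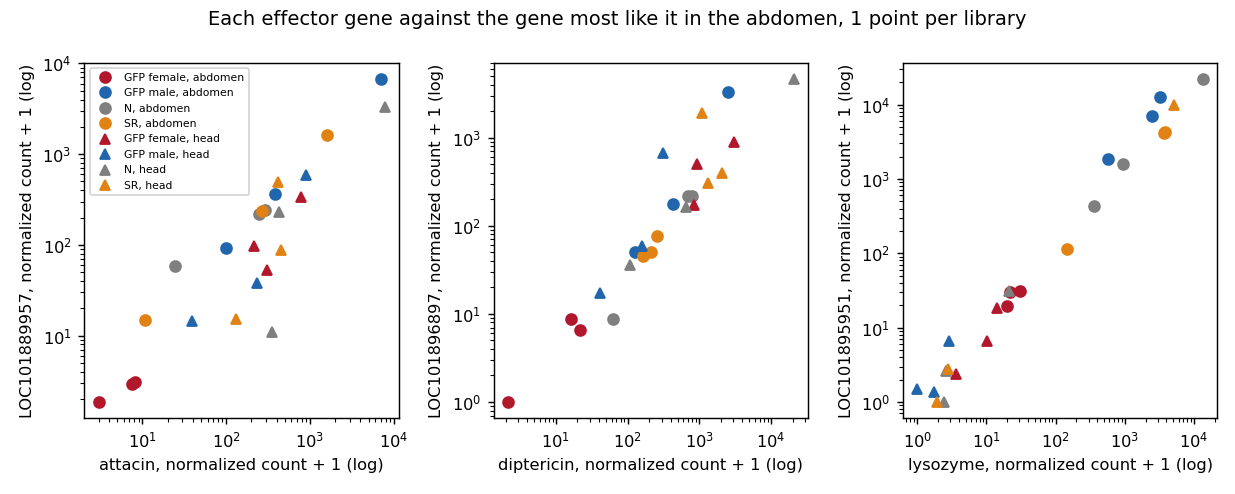
Each effector gene against the gene most like it in the abdomen, in normalized counts plus 1 on log axes, with 1 point per library, circles for abdomens and triangles for heads. Abdomen points rise together for attacin with LOC101889957 (r = 0.985) and for lysozyme with LOC101895951 (r = 0.996), where r is taken on deviations from the group means.

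Defensin-1, an antimicrobial peptide that acts mainly on Gram-positive bacteria in other insects, was taken by its symbol as a further immune gene. Choice by symbol misses immune genes that carry only a LOC identifier, as attacin does in the reference gene table. Whether the tables hold other immune genes was therefore not tested. In the abdomen it stood at 636, 102 and 15.6 normalized counts in GFP females, 32467, 3852 and 7107 in GFP males, 1394, 4680.5 and 1617 in N, and 311, 2465 and 5909 in SR. It was lower in GFP females than in GFP males by a log2 difference of -6.54 ± 1.38 (limma, adjusted p = 0.00133), and N (4.41, limma, adjusted p = 0.0131) and SR (4.01, limma, adjusted p = 0.0215) were higher than GFP females. SR replicate 1, at 311, lay below the highest female for defensin-1. Across the abdomens its likeness to attacin ranked 94 (r = 0.634), to diptericin 219 (r = 0.605) and to lysozyme 5696 (r = -0.11). In the head it was not called in any comparison, with group means of 38353 ± 21916 (SD, n = 3) in GFP females, 17306 ± 14010.2 in GFP males, 35518 ± 19997 in N and 20603 ± 24931 in SR.

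The authors' deposited table gives log2 fold changes of GFP males over GFP females in the abdomen of 8.89 for attacin (adjusted p = 1.15e-08), 6.36 for diptericin (adjusted p = 6.65e-08) and 6.50 for lysozyme (adjusted p = 3.24e-07). In the authors' deposited table, the comparison headed as sex-reversed males over GFP females gives 6.91 for attacin (adjusted p = 1.02e-05), 4.10 for diptericin (adjusted p = 0.000581) and 6.79 for lysozyme (adjusted p = 9.42e-08). These are the log2 folds of the SR means over the means of GFP females, 120-fold, 17.1-fold and 111-fold. The means of N were 35.3-fold, 41.7-fold and 215-fold those of GFP females. In the head, the authors' deposited table gives -3.28 for lysozyme in GFP males over GFP females, with an adjusted p of 0.0461. Its mean there is 4.70 normalized counts, in which replicate 2 of SR has a weight of 0. The limma fit above kept that library in its estimate of the spread. For attacin (-0.16) and diptericin (-3.26) in that comparison, the authors' deposited table gives no adjusted p-value.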

How the data were processed

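Poly(A) RNA of single heads and abdomens was sequenced with a stranded library kit, per the labels' protocols. Tools listed in the submitters' processing notes are DESeq2 1.16.1, HTSeq 0.9.1, CASAVA 1.8 and HISAT2, with no genome build given in the sources used here. For each tissue the authors deposited a table of normalized counts, a signal made by dividing counts by size factors, with their own log2 fold changes and adjusted p-values, per the file headers. Dividing by the worth of 1 read gave whole reads for 100.0% of values, within 0.001.

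Normalized counts were used as log2(normalized count + 1), and genes with at least 10 in at least 3 of 12 libraries were kept (12537 in the abdomen, 12237 in the head). Groups were compared with limma 3.58.1 in R 4.3.3 (trended prior, 12 libraries per fit, no block), adjusted over all genes kept by the Benjamini-Hochberg method at 0.05. The plan named edgeR for raw counts, and the unit found decided for limma. Recovered reads were tested with DESeq2 1.42.0 and edgeR 4.0.16 as alternatives, and edgeR called 10322 genes for GFP females against GFP males in the abdomen and 2961 in the head. The exact permutation test of GFP females against all phenotypic males used SciPy 1.17.1, and the permutations of correlations were coded directly. On simulated data, only the limma comparison of SR with GFP males was tested. The other steps were not tested in that way. Replicate numbers were checked for pairing by the correlation of same-numbered deviations, and only SR and GFP males of the abdomen met the criterion (r = 0.18, 0.32 and 0.46), where the block changed no call of an effector. The rule for named genes took the 3 effectors, their sequence relatives, immune genes by symbol and the 3 genes most like each effector. The search for sequence relatives was not run, since no protein sequences were at hand. The members and lists were chosen with earlier results of these data known. The deposited identifiers matched the reference gene table in 13644 cases. The limit set for 0 reads covers counting error only, since PCR copies of 1 molecule cannot be told from separate molecules. Replicates are described as biological, and p-values measure the spread between these flies.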

Additional observations from a re-analysis of the deposited data

Results flagged for a closer look

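The interaction of genotype and Md-tra dsRNA in the abdomen passed the test in limma for 2 of 3 effectors with the genotypes of the titles, at 6.47 log2 units for diptericin and 6.51 for lysozyme, where 67.2% of all genes passed. Attacin did not pass (adjusted p = 0.0551). With N and SR exchanged, the interaction passed for 3 of 3, at 7.29 for attacin, 5.18 for diptericin and 5.75 for lysozyme, where 62.9% of all genes passed. It passed for 0 of 3 with the number of the library code as a block. In both readings the interaction is GFP males minus GFP females plus a difference between N and SR, which was not called. It therefore largely restates the difference between GFP males and GFP females.

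In the head, every GFP female lay above every GFP male for diptericin and lysozyme, as for 23.5% of all genes in the head. This order is opposite to that in the abdomen. The differences were 3.40 log2 units for diptericin (limma, adjusted p = 0.124) and 2.26 for lysozyme (limma, adjusted p = 0.521), and neither was called. The latter was on at most 10 reads per library, and its SE takes in the spread from replicate 2 of SR, which is in neither group. The lowest female for lysozyme, replicate 1, had 2.70 normalized counts on 2 reads, under the 4.05 that 3 reads are worth there. The highest GFP male, replicate 1, had 1.84 on 4 reads, so the order for lysozyme rests on very few reads. The difference between tissues was not tested, and each tissue was fitted on its own.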

How the results depend on the processing

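GFP females against GFP males in the abdomen gave 3 calls of 3 under every alternative run. TMM scaling moved the median of all genes there from -0.61 to -0.095 log2 units and gave -6.37 for attacin, -5.37 for diptericin and -5.62 for lysozyme, all called. Attacin in N against GFP females was called by DESeq2 (adjusted p = 0.00126) and in a limma fit of those groups alone (0.00845), and attacin in SR against GFP females was not called with a pseudocount of 10 (limma, adjusted p = 0.0672) or with the number of the library code fitted as a block (0.103). Attacin in the interaction as titled was called by edgeR (adjusted p = 0.0394) and DESeq2 (0.00171). The replicate block, which was fitted without evidence of pairing in most comparisons, changed no call of an effector: in SR against GFP males of the abdomen, the comparison with pairing, attacin stayed at -1.96.

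For the interaction of the abdomen with N and SR exchanged, the count of effectors called went from 3 to 0 with that block and to 1 without both shallow N abdomens, alternatives added after seeing the data, and ranged from 0 to 3 with single libraries left out. In the head, GFP females against GFP males had 1 call in a fit of those groups alone, and N against GFP males had 0 to 1 with single libraries left out. With a pseudocount of 10, lysozyme of GFP females against the 9 males in the head was -0.46. With single libraries left out, the differences between females and the 9 males ranged in the abdomen from -5.92 to -4.75 for attacin, -5.80 to -4.13 for diptericin and -6.43 to -5.61 for lysozyme, with an adjusted p of up to 0.0727 in the exact permutation test, the smallest possible with 2 females. In the head they ranged from -0.62 to 0.45 for attacin and -0.0577 to 1.55 for lysozyme.

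Several differences that were never called changed sign, and the cause was not tested. In the abdomen these were lysozyme in SR against GFP males by edgeR (0.33) and DESeq2 (0.29), diptericin in N against GFP males with the code number as a block (1.03) and without the shallow N libraries (0.60), and lysozyme in N against GFP males with TMM scaling (-0.0003035). In the head these were diptericin in N against GFP females by edgeR (2.15) and DESeq2 (2.16), in SR against GFP females by the code block (-1.22), edgeR (-0.13) and DESeq2 (-0.12), and in N against SR by the code block (0.97), edgeR (2.28) and DESeq2 (2.28), and attacin in SR against GFP males by edgeR (-0.25) and DESeq2 (-0.22).

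With single libraries left out, sign changes gave these ranges in the abdomen: -3.60 to 0.0238 for attacin and -1.16 to 1.18 for lysozyme in SR against GFP males, -1.67 to 0.52 for diptericin and -1.50 to 1.12 for lysozyme in N against GFP males, and -2.45 to 1.18 for attacin and -1.17 to 1.49 for lysozyme in N against SR. In the head the ranges were -0.29 to 1.97 for attacin in GFP females against GFP males, -2.35 to 1.45 for diptericin in N against GFP females, -0.76 to 0.22 for attacin, -0.25 to 0.69 for diptericin and -1.81 to 3.87 for lysozyme in SR against GFP females, -0.65 to 1.61 for attacin in SR against GFP males, and -2.45 to 1.36 for diptericin and -4.54 to 1.14 for lysozyme in N against SR. The interaction in the head ranged from -0.46 to 2.15 for attacin as titled and from -3.40 to 2.28 for lysozyme with N and SR exchanged.

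Counts of all genes called ranged over the alternatives from 1 to 259 for SR against GFP males, 0 to 2195 for N against GFP males and 38 to 2784 for N against SR in the abdomen. In the head they ranged from 572 to 4227 for GFP females against GFP males, 30 to 590 for N against GFP females, 0 to 858 for SR against GFP females, 39 to 1970 for SR against GFP males, 102 to 2856 for N against GFP males and 1 to 200 for N against SR. The interaction in the head ranged from 108 to 1276 as titled and from 0 to 2814 with N and SR exchanged. Depth limits the low values most: attacin and diptericin of female abdomens, the N libraries of the abdomen, and lysozyme of the head.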
